A study of Mus musculus with 24 samples.

Results

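The 10 genes described here are the hepcidin genes Hamp and Hamp2 and 8 genes that set hepcidin transcription or move iron in and out of cells: Bmp6, Id1, Smad7, Tmprss6, Tfr2, Hfe, Tfrc and Slc40a1. They were chosen by name from the 54432 genes of the table, and each symbol matched a single row. All 10 passed the filter on low values, a mean of at least 1 normalized count over the 24 libraries, which 19810 genes passed. Hepcidin is a small hormone that hepatocytes secrete and that makes cells degrade ferroportin, the iron exporter encoded by Slc40a1, so that more hepcidin means less iron entering the blood. Its gene is switched on through bone morphogenetic protein (BMP) receptors and SMAD proteins when endothelial cells of the liver release BMP6, with HFE, TFR2 and hemojuvelin as co-factors on the hepatocyte, and through STAT3 when interleukin-6 signals inflammation. The protease TMPRSS6 and the inhibitory SMAD7 hold this signalling down. C/EBPα is known as an activator of the mouse hepcidin promoter, and TRIB1 is a pseudokinase that presents C/EBPα to the ubiquitin ligase COP1.

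Whole liver RNA was sequenced from 24 male C57BL/6 mice in 4 groups of 6. The groups were homozygous for floxed Trib1 (labelled Trib1-KO), for floxed Cebpa (Cebpa-KO) or for both (DKO), or were wild type (WT). All of them, WT included, received an intraperitoneal adeno-associated virus encoding Cre recombinase at 20 to 21 weeks of age and were killed 4 weeks later at midday, on chow and after a 4 h fast. They were treated in 2 cohorts of 3 mice per group. The promoter that drives Cre is not given in the sources used here, and no group without the virus was analysed.

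Values are the authors' estimated counts after division by one size factor for each library, and are called normalized counts here. Totals were 23385900 to 27190700 normalized counts per library. Cebpa averaged 2668 normalized counts in the libraries labelled Trib1-KO, 82.2 in Cebpa-KO and 82.4 in DKO, against 6019 in WT. Trib1 went against its label. It averaged 4237 normalized counts in the libraries labelled Trib1-KO, against 1224 in WT (log2 difference 1.81 ± 0.24 (SE), limma adjusted p = 3.5e-06), and 333 in Cebpa-KO and 732 in DKO. The values cover all exons of a gene, and the exons that the floxed Trib1 allele loses are not given in the sources used here, so this level does not check the deletion. The group is called labelled Trib1-KO for that reason, and the Trib1 state of DKO likewise rests on its label. Fewer cells of a type and less RNA per cell cannot be told apart in whole liver.

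Hamp and Hamp2 are neighbouring copies on chromosome 7 of the mouse genome (GRCm38), both on the minus strand. Hamp lies at chr7:30942368-30944032 and Hamp2 at chr7:30922372-30924681, 17687 bases apart, and Cebpa lies 4.19 Mb from Hamp2 on the same chromosome. The first annotated transcripts of Hamp (410 bases) and Hamp2 (420 bases) were 94.6% identical over 410 aligned positions. Of the 31-base words of the Hamp transcripts 33.7% occurred in Hamp2 transcripts, and 23.1% of the words of Hamp2 occurred in Hamp. Reads from the shared stretches had to be divided by Salmon's estimate, so a low Hamp2 level beside a high Hamp level is uncertain to that extent. The 250 bases before each start (RefSeq, GRCm38.p6), at chr7:30944030-30944279 for Hamp and chr7:30924182-30924431 for Hamp2, are shown because Hamp2 fell in DKO livers and Hamp was not called, while their upstream sequence was 91.9% identical (227 of 247 aligned positions). The Hamp2 window lies directly before the start that RefSeq and 2 of its 3 GENCODE transcripts share, and inside the span of the third GENCODE transcript, whose start at base 30924681 lies farther upstream. Capitals mark GGCGCC, the core of a BMP response element, and TTCNNNGAA, a STAT site, each searched on both strands.

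Hamp upstream: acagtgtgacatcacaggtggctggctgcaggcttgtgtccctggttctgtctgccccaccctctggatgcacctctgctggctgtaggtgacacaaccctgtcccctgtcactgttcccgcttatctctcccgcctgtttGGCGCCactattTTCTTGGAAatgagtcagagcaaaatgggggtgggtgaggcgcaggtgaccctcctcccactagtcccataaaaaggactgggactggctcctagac

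Hamp2 upstream: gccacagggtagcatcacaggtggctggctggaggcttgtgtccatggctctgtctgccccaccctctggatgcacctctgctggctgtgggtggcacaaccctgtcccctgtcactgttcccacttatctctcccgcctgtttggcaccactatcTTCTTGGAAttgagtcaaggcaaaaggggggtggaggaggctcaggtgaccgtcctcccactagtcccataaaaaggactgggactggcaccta

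The upstream window of Hamp held GGCGCC at bases -109 to -104 from the start and TTCTTGGAA at -97 to -89. The window of Hamp2 held TTCTTGGAA at -94 to -86 and no GGCGCC. Among 32536 RefSeq windows of the same length, 9.65% held GGCGCC and 7.04% held TTCNNNGAA. CANNTG, the E-box, which USF factors bind, occurred at 2 places in each of the hepcidin windows and in 66.2% of all windows. TTNNGNAA, a C/EBP-like core, occurred in neither hepcidin window and in 36.8% of all windows. Windows were found for 6 of the 10 genes, namely Hamp, Hamp2, Bmp6, Tfr2, Tfrc and Hfe. A match is a match of letters only.

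Tfrc, the receptor that takes up transferrin-bound iron, and Slc40a1 are also known to be controlled after transcription. Iron regulatory proteins bind stem-loops called iron-responsive elements, which protect the Tfrc transcript from decay and hold back translation of the Slc40a1 transcript when iron is low. The elements are shown because they bear on how an RNA level of these genes can be read. A search of GENCODE transcripts for a C, 5 bases, the loop CAGTGN and 5 bases pairing with those before the loop found 4 matches in the 3' UTR of Tfrc and 1 match in the 5' UTR of Slc40a1. The loop is in capitals.

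Tfrc stem-loop 1, chr16:32631225-32631241: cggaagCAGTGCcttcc
Tfrc stem-loop 2, chr16:32631604-32631620: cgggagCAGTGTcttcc
Tfrc stem-loop 3, chr16:32631669-32631685: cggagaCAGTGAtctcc
Tfrc stem-loop 4, chr16:32631716-32631732: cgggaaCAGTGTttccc
Slc40a1 stem-loop 1, chr1:45925471-45925487: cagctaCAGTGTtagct

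Of 21877 genes with protein-coding transcripts, 294 (1.34%) had such a match, and a single gene, Tfrc, had 4 or more.

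Hamp was the most abundant of the 10 genes per length, with a mean of 27520 normalized counts per kb of exon in WT, against 3067 for Tmprss6 and 2254 for Tfr2, the next in order. It was not called in any comparison. The lowest, median and highest Hamp values were 8644, 11651 and 14248 normalized counts in the livers labelled Trib1-KO, and 7592, 9951 and 13960 in Cebpa-KO livers. They were 8991, 9680 and 14486 in DKO livers and 7781, 11472 and 14087 in WT livers. The 4 groups overlapped almost entirely. On log2(normalized count + 1), the difference from WT was 0.08 in the livers labelled Trib1-KO (95% interval -0.26 to 0.41), -0.13 in Cebpa-KO (-0.46 to 0.21) and -0.05 in DKO (-0.38 to 0.29). With the deposited scaling the lowest of its limma adjusted p values was 0.64, in DKO against the livers labelled Trib1-KO. Over the alternative analyses the lowest in that comparison was 0.052. A change of Hamp within these intervals cannot be told from none with 6 livers per group. The order of the means was labelled Trib1-KO, WT, DKO and Cebpa-KO, and no neighbours in that order were separated.

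Hamp2, whose product did not lower body iron as hepcidin does when it was overexpressed in mice, fell in DKO livers. Its lowest, median and highest values were 65.6, 95.8 and 151 normalized counts in the livers labelled Trib1-KO, 56.4, 73.0 and 91.0 in Cebpa-KO, 15.9, 20.2 and 32.5 in DKO, and 32.9, 109 and 189 in WT. All 6 DKO libraries were below all 18 others, although the highest DKO library (32.5) and the lowest WT library (32.9) nearly met. Hamp2 fell in DKO against WT by 2.15 on the log2 scale (0.226-fold, 95% interval 0.142 to 0.359, limma adjusted p = 1.1e-04). It fell in DKO against the livers labelled Trib1-KO (log2 difference -2.21 ± 0.32, the error of every log2 difference being its SE, adjusted p = 7.1e-06) and in DKO against Cebpa-KO (-1.72 ± 0.32, adjusted p = 0.02). Single libraries are named by the letter and number in the authors' table. That last call was lost without Cebpa-KO library E1, E3 or F1 or DKO library G2 (adjusted p 0.05 to 0.061 without each), while the log2 difference stayed between -1.84 and -1.64. Neither group with a single targeted gene was called against WT, at 0.07 ± 0.32 in the livers labelled Trib1-KO and -0.43 ± 0.32 in Cebpa-KO (adjusted p 0.92 and 0.49).

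The 2-by-2 design allows a test of whether the DKO level departs from the sum of the separate differences. This interaction is the difference of DKO from Cebpa-KO minus the difference of the livers labelled Trib1-KO from WT. For Hamp2 it was -1.78 ± 0.46 on the log2 scale (limma adjusted p = 0.0098), and for Hamp it was 0.00 ± 0.23 (adjusted p 0.99). Per base of transcript, Hamp2 amounted to 0.90% ± 0.41 of Hamp in the livers labelled Trib1-KO, 0.71% ± 0.22 in Cebpa-KO and 0.20% ± 0.08 in DKO, against 0.93% ± 0.42 in WT (SD, n = 6 each). Hamp and Hamp2 added together averaged 11890 normalized counts in the livers labelled Trib1-KO, 10430 in Cebpa-KO and 10900 in DKO, against 11400 in WT. None of the 5 group pairs passed an exact 2-sided permutation test of that sum (adjusted p = 0.749 for each pair, the smallest p the design allows being 0.00216). Because Hamp2 averaged at most 0.93% of Hamp in any group, the sum nearly repeats Hamp. The test therefore cannot show whether reads were divided wrongly between the copies. Of the other genes within 100 kb of Hamp2, none that was tested was called in DKO against WT or against Cebpa-KO. Over all genes 6.09% and 0.202% were called there, so the count is near that level. In the interaction, where 12.6% of all genes were called, Fam187b was below 0 (log2 -0.86, limma adjusted p = 0.022). Gm4673 was above 0 (1.43, adjusted p = 5.7e-04). Fam187b also fell in Cebpa-KO against WT (-0.57, adjusted p = 0.037).

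**Figure D1:**
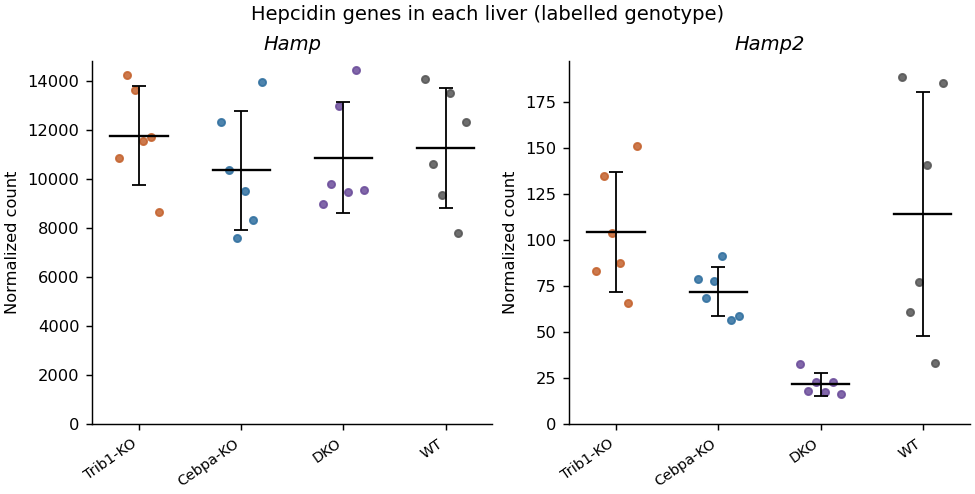
Normalized counts of Hamp (left) and Hamp2 (right) in each of the 24 livers, by labelled group on the horizontal axis. Points are livers, and the horizontal line and bar are the mean and SD of 6. Hamp spans much the same range in all groups, while the 6 DKO livers lie between 15.9 and 32.5 for Hamp2.

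The level of erythroid markers, a sign of blood in the tissue, moved with Hamp2 in part. The summed level of 8 erythroid markers was 2404 to 3803 normalized counts in the livers labelled Trib1-KO, 1593 to 3574 in Cebpa-KO and 1289 to 2440 in DKO, against 2074 to 6634 in WT, and none of the 8 was at 0 in all libraries. Of the 6 that passed the filter, Alas2, the enzyme that starts heme synthesis in red cell precursors, fell in Cebpa-KO (log2 -1.11, adjusted p = 1.5e-05) and DKO (-1.38, adjusted p = 1.3e-06), and no globin gene was called. With group means taken out, Hamp2 and this sum had a Pearson's r of 0.59 and a Spearman's rho of 0.37 (permutation p 0.027 and 0.14). Within groups r was 0.89 in WT and 0.22, 0.18 and -0.08 in the livers labelled Trib1-KO, Cebpa-KO and DKO. The part of these markers in the fall of Hamp2 in DKO was not tested.

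Among the genes that carry or read the BMP signal, Id1 fell in Cebpa-KO livers, and the ligand Bmp6 and the inhibitor Smad7 were not called in any comparison. Id1, which encodes an inhibitor of basic helix-loop-helix factors and is a direct target of BMP and SMAD signalling, had lowest, median and highest values of 80.5, 169 and 190 normalized counts in the livers labelled Trib1-KO and 39.4, 59.0 and 111 in Cebpa-KO. The values were 42.9, 70.1 and 84.3 in DKO and 90.9, 118 and 132 in WT. Every DKO liver was below every WT liver, while Cebpa-KO livers overlapped WT. Id1 fell in Cebpa-KO against WT (log2 -0.92 ± 0.26, limma adjusted p = 0.021). The difference of DKO from WT was -0.79 ± 0.26 and missed the threshold (adjusted p = 0.071). Id1 fell in DKO against the livers labelled Trib1-KO (-1.11 ± 0.26, adjusted p = 0.0015), and DKO and Cebpa-KO were 0.13 apart (95% interval -0.40 to 0.66). Without Cebpa-KO library E2, E3 or F3 the call against WT was lost (adjusted p 0.056 to 0.061). In DKO against WT a fit of only these groups gave an adjusted p of 0.021.

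Bmp6 encodes the main ligand that raises hepcidin when liver iron is high. Its lowest, median and highest values were 140, 167 and 211 normalized counts in the livers labelled Trib1-KO, 88.6, 142 and 207 in Cebpa-KO, 113, 209 and 262 in DKO, and 82.9, 132 and 171 in WT. The means ran in the order DKO, labelled Trib1-KO, Cebpa-KO and WT, with each overlapping the next. The log2 difference from WT was 0.42 ± 0.21 in the livers labelled Trib1-KO (limma adjusted p = 0.18) and 0.55 ± 0.21 in DKO (adjusted p = 0.16, and 0.048 without DKO library H2). In the livers labelled Trib1-KO it was called under a scaling that leaves out the major urinary protein genes, described with the pathway lists.

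Smad7, an inhibitor that SMAD signalling itself induces, had lowest, median and highest values of 93.8, 191 and 315 normalized counts in the livers labelled Trib1-KO, 112, 191 and 242 in Cebpa-KO, 104, 179 and 266 in DKO, and 127, 205 and 262 in WT. All groups overlapped, and the log2 difference from WT lay between -0.23 and -0.13 in the 3 comparisons (SE 0.29, adjusted p 0.76 to 0.81). Relations of Hamp, Bmp6, Id1 and Smad7 to each other were computed over the 24 libraries after the group means were taken out. Pearson's r lay between -0.20 and 0.22 and Spearman's rho between -0.19 and 0.20 for the 6 pairs, and none passed (permutation tests, adjusted p at least 0.92). For Hamp and Bmp6 r was 0.11 and rho 0.05 (permutation p 0.63 and 0.84), and r was -0.05 without the 2 libraries farthest from the median.

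Tmprss6 and Tfr2, a brake and an accelerator of hepcidin, both fell in the livers labelled Trib1-KO against WT and were not called in Cebpa-KO or DKO against WT. Tmprss6, the hepatocyte protease matriptase-2 that trims hemojuvelin from the cell surface, had lowest, median and highest values of 6928, 7475 and 8229 normalized counts in the livers labelled Trib1-KO and 9461, 9604 and 10890 in Cebpa-KO. It had 10186, 10909 and 12140 in DKO and 8999, 10107 and 12315 in WT. All 6 livers labelled Trib1-KO were below all 18 others. The log2 difference from WT was -0.43 ± 0.07 in the livers labelled Trib1-KO (limma adjusted p = 2.6e-05), -0.06 ± 0.07 in Cebpa-KO and 0.09 ± 0.07 in DKO (adjusted p 0.67 and 0.55). In DKO it rose against the livers labelled Trib1-KO (0.52 ± 0.07, adjusted p = 1.1e-06), and its interaction was 0.58 ± 0.09 (adjusted p = 1.2e-04).

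Tfr2 encodes transferrin receptor 2, through which hepatocytes sense iron-loaded transferrin. Its lowest, median and highest values were 5504, 6038 and 7360 normalized counts in the livers labelled Trib1-KO, 8377, 8651 and 13041 in Cebpa-KO, 9432, 10657 and 14142 in DKO, and 8815, 9861 and 10881 in WT. The livers labelled Trib1-KO were again below all others, and the other groups overlapped each other. Tfr2 fell in the livers labelled Trib1-KO against WT (log2 -0.66 ± 0.11, 0.635-fold, limma adjusted p = 5e-05), rose in DKO against the livers labelled Trib1-KO (0.85 ± 0.11, adjusted p = 7.4e-07), and had an interaction of 0.88 ± 0.15 (adjusted p = 2.2e-04). In Cebpa-KO it was -0.03 ± 0.11 from WT and in DKO 0.19 ± 0.11 (adjusted p 0.91 and 0.37).

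The remaining sensors and transporters moved less. Hfe, the MHC class I-like protein lost in the commonest hereditary hemochromatosis, had lowest, median and highest values of 1047, 1095 and 1275 normalized counts in the livers labelled Trib1-KO, 933, 974 and 1222 in Cebpa-KO, 973, 1080 and 1231 in DKO, and 1040, 1227 and 1385 in WT. All groups overlapped. Hfe fell in Cebpa-KO against WT (log2 -0.26 ± 0.08, limma adjusted p = 0.043). This call was lost in 13 of 23 alternative analyses, with the log2 difference between -0.32 and -0.22.

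Tfrc stood out for its spread in Cebpa-KO. It had lowest, median and highest values of 263, 337 and 419 normalized counts in the livers labelled Trib1-KO, 215, 316 and 936 in Cebpa-KO, 208, 283 and 322 in DKO, and 220, 285 and 356 in WT. Within Cebpa-KO, libraries E1 and E2 held 704 and 936, library F1 held 404, and the other 3 held 215 to 227. The log2 difference of Cebpa-KO from WT was 0.44 ± 0.28 (adjusted p = 0.40), and without libraries E1 and E2 its sign turned, to -0.11. The groups overlapped in every comparison. Slc40a1, the ferroportin gene on which hepcidin's protein acts, had lowest, median and highest values of 3090, 3349 and 4880 normalized counts in the livers labelled Trib1-KO, 2173, 4460 and 5876 in Cebpa-KO, 3549, 4935 and 5617 in DKO, and 2990, 3793 and 4055 in WT. Its log2 difference from WT was -0.02 ± 0.17, 0.17 ± 0.17 and 0.34 ± 0.17 in these groups, in the order labelled Trib1-KO, Cebpa-KO and DKO (adjusted p 0.95, 0.65 and 0.31). The stem-loop of Slc40a1 shown above is known to act on translation, so its RNA level and protein amount need not move together. Those of Tfrc are known to act on decay of the transcript, so its RNA level need not follow transcription. Protein was not measured here.

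**Figure D2:**
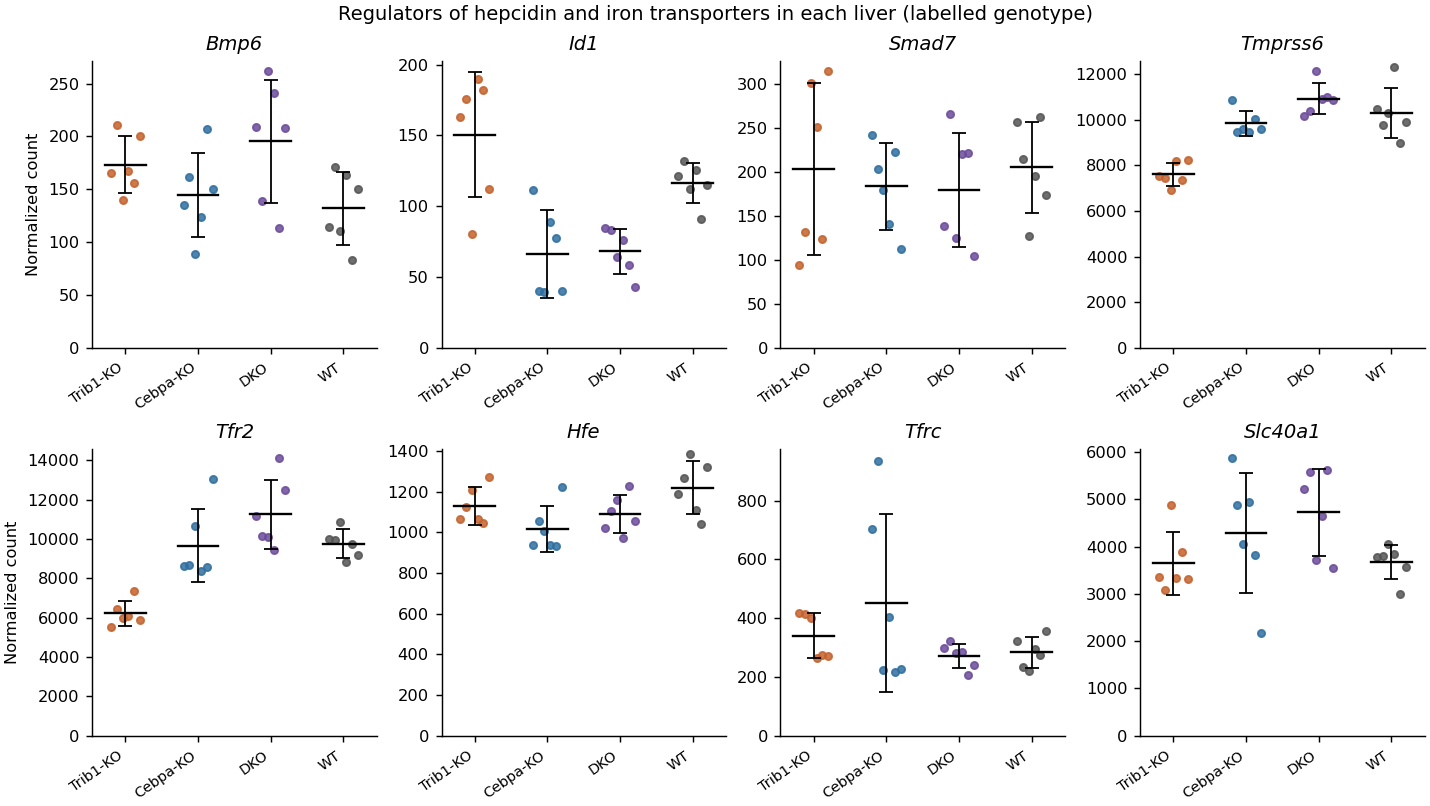
Normalized counts of the other 8 genes in each of the 24 livers, by labelled group on the horizontal axis, each panel with its own scale from 0. Points are livers, and the horizontal line and bar are the mean and SD of 6. Tmprss6 and Tfr2 are lowest in the livers labelled Trib1-KO, Id1 is lowest in Cebpa-KO and DKO livers, and 2 Cebpa-KO livers stand high for Tfrc.

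Counted over the 10 genes, 2 fell and none rose in the livers labelled Trib1-KO against WT, where 22.7% of all genes tested were called, 11.8% as higher and 10.9% as lower. In Cebpa-KO against WT 2 fell and none rose, beside 9.82% of all genes called (4.6% higher, 5.22% lower). In DKO against WT 1 fell and none rose, beside 6.09% (2.84% higher, 3.25% lower). In DKO against Cebpa-KO 1 fell and none rose, beside 0.202% (0.0808% higher, 0.121% lower). In DKO against the livers labelled Trib1-KO 2 rose and 2 fell, beside 30.3% (14.6% higher, 15.7% lower). In the interaction 2 were above 0 and 1 was below, beside 12.6% (6.35% above, 6.22% below). The median log2 difference from WT of the 10 was 0.02 in the livers labelled Trib1-KO, -0.09 in Cebpa-KO and -0.05 in DKO, beside 0.01, 0.01 and 0.00 over all genes. The comparisons share libraries, so their counts are not independent of each other.

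**Figure D3:**
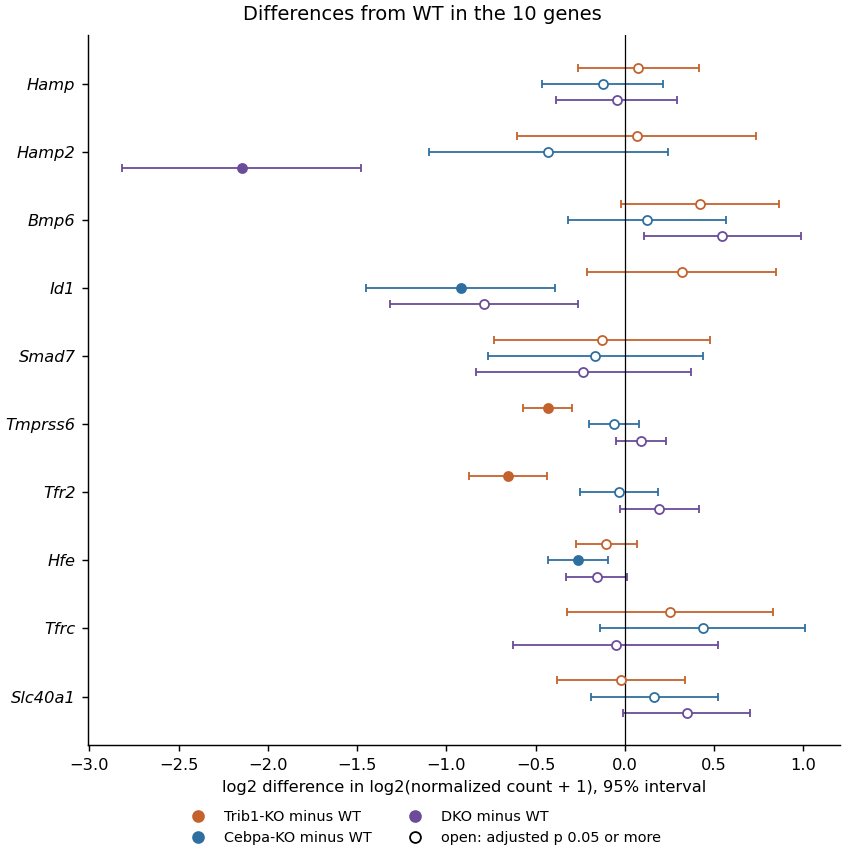
Difference from WT of the 10 genes on the scale log2(normalized count + 1), with 95% intervals from limma, for the livers labelled Trib1-KO, Cebpa-KO and DKO. Filled points passed an adjusted p of 0.05. Hamp2 in DKO, at -2.15, lies farthest from 0, and the 3 intervals of Hamp include 0.

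The wider BMP and SMAD pathway was followed in 26 tested genes outside the 10. In Cebpa-KO 3 fell and none rose against WT, beside 5.22% of all genes lower, and in DKO 2 fell and none rose, beside 3.25%. In either direction 9.82% of all genes were called in Cebpa-KO and 6.09% in DKO, so the counts are near the level of all genes. Hjv encodes hemojuvelin, the BMP co-receptor of hepatocytes that TMPRSS6 cleaves. It averaged 2234 ± 145 normalized counts in the livers labelled Trib1-KO, 853 ± 138 in Cebpa-KO and 1024 ± 237 in DKO, against 1668 ± 249 in WT (SD, n = 6 each). It fell in Cebpa-KO (log2 -0.97 ± 0.13, limma adjusted p = 1.2e-05) and DKO (-0.72 ± 0.13, adjusted p = 8.3e-04) and rose in the livers labelled Trib1-KO (0.43 ± 0.13, adjusted p = 0.016). All Cebpa-KO and DKO livers were below all WT livers, although the highest DKO liver, at 1372 normalized counts, nearly met the lowest WT liver, at 1381.

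Id3, a BMP target like Id1, averaged 905 ± 221 normalized counts in the livers labelled Trib1-KO, 578 ± 114 in Cebpa-KO and 510 ± 80.2 in DKO, against 985 ± 190 in WT (SD, n = 6 each). It fell in Cebpa-KO (log2 -0.77 ± 0.16, adjusted p = 0.002) and DKO (-0.94 ± 0.16, adjusted p = 4.6e-04). Bambi, a decoy receptor, fell in Cebpa-KO (-0.49 ± 0.16, adjusted p = 0.047). In the livers labelled Trib1-KO 4 of the 26 rose and 3 fell against WT, near the shares of all genes (11.8% and 10.9%). Fst, which encodes the activin antagonist follistatin, rose by 1.48 ± 0.37 (adjusted p = 0.0039), while Id2 fell by 0.82 ± 0.19 (adjusted p = 0.0017), the activin receptor gene Acvr2b fell by 1.13 ± 0.27 (adjusted p = 0.0033) and the proprotein convertase gene Furin fell by 0.33 ± 0.09 (adjusted p = 0.0087). The median log2 difference of the 26 was -0.07 in the livers labelled Trib1-KO, -0.13 in Cebpa-KO and -0.11 in DKO.

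Of 10 tested genes on the list of the interleukin-6 and STAT3 arm, 3 rose and 2 fell in the livers labelled Trib1-KO. In Cebpa-KO 1 rose, and none was called in DKO. The list also holds Creb3l3, which fell, and Inhbb, which rose in the livers labelled Trib1-KO, as other activators of hepcidin. Of all genes 22.7% were called in the livers labelled Trib1-KO, 9.82% in Cebpa-KO and 6.09% in DKO, so the count in Cebpa-KO is at the level of all genes. Creb3l3, a liver transcription factor that activates hepcidin under endoplasmic reticulum stress, averaged 4775 ± 327 normalized counts in the livers labelled Trib1-KO, 7782 ± 376 in Cebpa-KO and 8690 ± 365 in DKO, against 7991 ± 510 in WT (SD, n = 6 each). It fell in the livers labelled Trib1-KO (log2 -0.74 ± 0.06, limma adjusted p = 3.1e-10). Inhbb, which encodes the subunit of activin B, a hepcidin inducer in inflamed mouse liver, rose by 1.17 ± 0.25 (adjusted p = 0.0011), Jak2 rose by 0.19 ± 0.07 (adjusted p = 0.047), and the interleukin-6 receptor gene Il6ra fell by 0.74 ± 0.21 (adjusted p = 0.010). In Cebpa-KO the kinase gene Jak1 rose by 0.41 ± 0.11 (adjusted p = 0.015). Acute phase genes, a sign of inflammation, moved in the same livers: of 12, 4 rose and 2 fell in the livers labelled Trib1-KO, none rose and 2 fell in Cebpa-KO, and none was called in DKO. Their summed level was 235711 to 328111, 191931 to 576898 and 206181 to 919600 normalized counts in these 3 groups in that order, against 263839 to 459127 in WT. Their part in these results was not tested.

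Genes for iron uptake, storage and export were called most often in the livers labelled Trib1-KO, as are genes in general (22.7% of all genes, against 9.82% in Cebpa-KO and 6.09% in DKO). There 5 of 25 rose and 7 fell, while 1 rose and 1 fell in Cebpa-KO and none was called in DKO. Trf encodes transferrin, the iron carrier of plasma, and averaged 168683 ± 6175 normalized counts in the livers labelled Trib1-KO, 298963 ± 33872 in Cebpa-KO and 379916 ± 132312 in DKO, against 311721 ± 49394 in WT (SD, n = 6 each). It fell in the livers labelled Trib1-KO (log2 -0.87 ± 0.16, limma adjusted p = 1.6e-04). Steap3, an endosomal ferrireductase, fell there by 1.03 ± 0.13 (adjusted p = 2.1e-06) and the metal importer gene Slc39a8 by 0.44 ± 0.09 (adjusted p = 7e-04), while Hmox1, the heme oxygenase that frees iron from heme, rose by 0.69 ± 0.12 (adjusted p = 8.4e-05). In Cebpa-KO the metalloreductase gene Steap2 rose by 1.06 ± 0.25 (adjusted p = 0.0059) and the iron importer gene Slc11a2 fell by 0.47 ± 0.12 (adjusted p = 0.010).

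Of 9 tested genes that sense iron or oxygen, 1 rose and 2 fell in the livers labelled Trib1-KO, 2 rose in Cebpa-KO and 1 rose in DKO, beside 22.7%, 9.82% and 6.09% of all genes called in these groups. Egln1, an iron-dependent prolyl hydroxylase of hypoxia-inducible factors, rose in Cebpa-KO (log2 0.33 ± 0.06, limma adjusted p = 7.3e-04) and DKO (0.29 ± 0.06, adjusted p = 0.0045). Nfe2l2, which encodes NRF2, rose in the livers labelled Trib1-KO (0.86 ± 0.10, adjusted p = 5.3e-07) and in Cebpa-KO (0.31 ± 0.10, adjusted p = 0.048). The genes of both iron regulatory proteins fell in the livers labelled Trib1-KO, Aco1 by 0.45 ± 0.06 (adjusted p = 6.6e-06) and Ireb2 by 0.29 ± 0.09 (adjusted p = 0.023). Of the 8 enzymes of heme synthesis, 3 fell in the livers labelled Trib1-KO, beside 10.9% of all genes lower, and none was called in Cebpa-KO or DKO. Fech, which inserts iron into the heme ring, averaged 2976 ± 87.2 normalized counts in the livers labelled Trib1-KO, 4151 ± 208 in Cebpa-KO and 4330 ± 220 in DKO, against 4487 ± 131 in WT (SD, n = 6 each), and fell in the livers labelled Trib1-KO (log2 -0.59 ± 0.05, adjusted p = 6.7e-10). Cpox fell there by 0.55 ± 0.07 (adjusted p = 2.3e-06) and Ppox by 0.57 ± 0.14 (adjusted p = 0.0032), and the rate-limiting Alas1 was at -0.88 ± 0.34 (adjusted p = 0.067).

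Comparisons that involve the livers labelled Trib1-KO depend on scaling. When totals without the 22 major urinary protein genes scaled the libraries, the median of all genes in that comparison with WT shifted to 0.24 on the log2 scale, and 84.0% of called genes were higher, against 51.8% with the deposited scaling. Under it Tfr2 was at -0.41 (adjusted p = 0.0027) and Tmprss6 at -0.19 (adjusted p = 0.047), and Bmp6 was called, at 0.66 (adjusted p = 0.024). In DKO against the livers labelled Trib1-KO the median of all genes shifted to -0.29 and 18.6% of called genes were higher, against 48.3%. There 2 of the 10 genes rose and 3 fell, beside 1452 higher and 6346 lower over all genes. The added call was Hfe, at -0.34 (limma adjusted p = 0.0019). In the interaction the median shifted to -0.24 and 17.8% of called genes were above 0, against 50.5%, while Tfr2, Tmprss6 and Hamp2 kept their sign and call. Of the list genes called in the livers labelled Trib1-KO against WT 9 lost their call and 21 kept it, the named genes Furin, Il6ra, Slc39a8, Ireb2 and Ppox among those lost, and none changed sign. Over all genes 5180 rose and 987 fell in that comparison under this scaling. Counts that rose and fell became 5 and 2 for the BMP list and 6 and 1 for the interleukin-6 list. They became 8 and 2 for iron uptake, storage and export and 4 and 1 for iron and oxygen sensing. For heme synthesis they were 1 and 2. With quantile normalization 6 of the list genes called in that comparison lost their call and 24 kept it. Furin, Jak2 and Ireb2 were among those lost. The call of Nfe2l2 in Cebpa-KO was lost under both scalings. Hamp was called under no alternative, but its log2 difference reached 0.32 in the livers labelled Trib1-KO against WT (adjusted p at least 0.14). In DKO against the livers labelled Trib1-KO the difference of Hamp reached -0.40 (adjusted p at least 0.052). With each library left out it went no lower than -0.21.

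**Figure D4:**
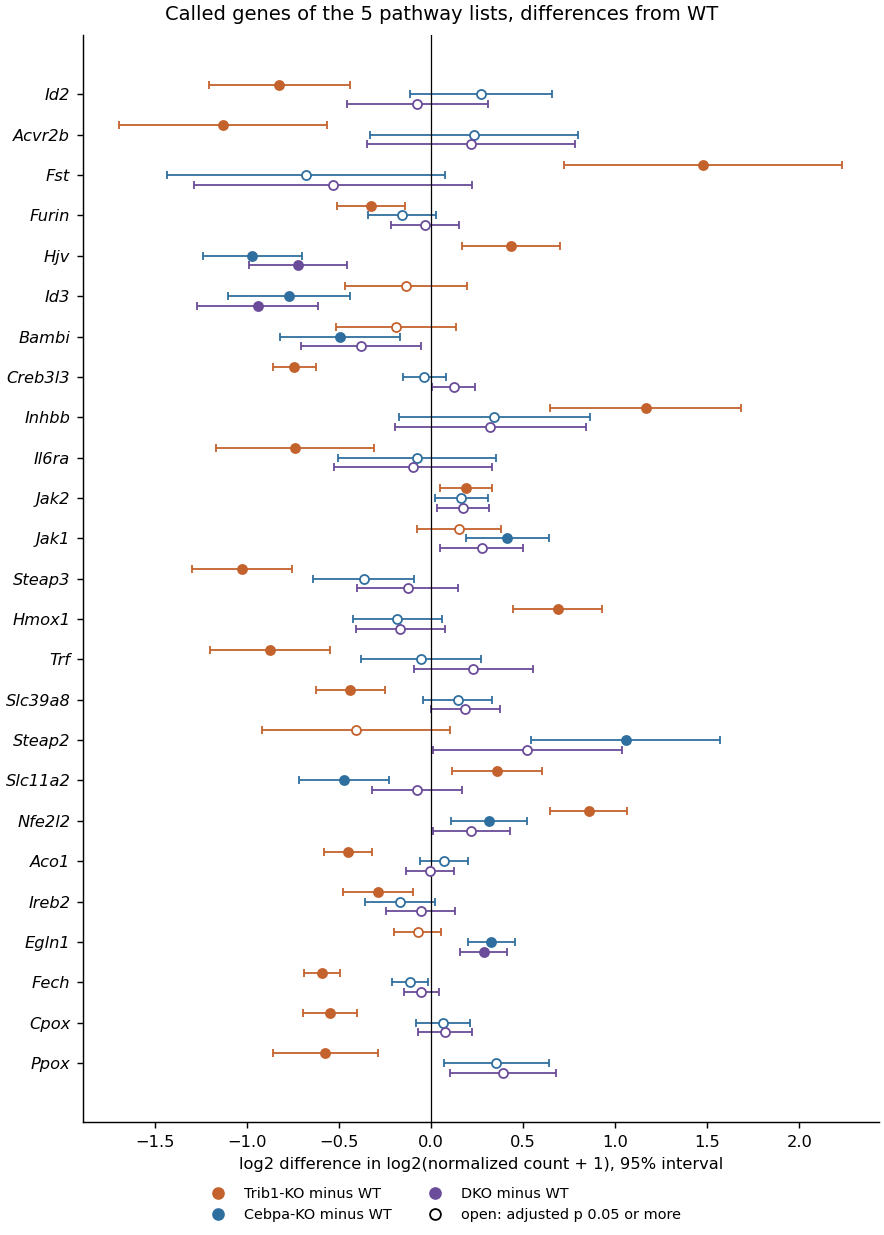
Difference from WT of the called genes named in the 5 pathway lists, on the scale log2(normalized count + 1), with 95% intervals from limma, for the livers labelled Trib1-KO, Cebpa-KO and DKO. Filled points passed an adjusted p of 0.05. Hjv and Id3 lie below 0 in Cebpa-KO and DKO, and Creb3l3, Steap3, Trf and Fech lie below 0 in the livers labelled Trib1-KO.

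Cell type markers moved with these groups. Beside the counts below, 11.8% of all genes rose and 10.9% fell in the livers labelled Trib1-KO against WT. In Cebpa-KO against WT 4.6% rose and 5.22% fell, and in DKO against WT 2.84% rose and 3.25% fell. In DKO against the livers labelled Trib1-KO 15.7% of all genes fell. Of 12 Kupffer cell and macrophage markers 10 rose in the livers labelled Trib1-KO, and their sum was 18896 to 22138 normalized counts in the livers labelled Trib1-KO, 12903 to 16884 in Cebpa-KO and 11427 to 17827 in DKO, against 9915 to 17988 in WT. Of 10 hepatocyte markers 7 fell in the livers labelled Trib1-KO, and their sum was 841240 to 976332 normalized counts there, 2596420 to 3356710 in Cebpa-KO and 2485900 to 2989330 in DKO, against 1908120 to 2720870 in WT. Alb, the albumin gene, made up much of that sum, at a mean of 2295000 in Cebpa-KO and 1915000 in DKO, against 1451670 in WT. By gene, 2 hepatocyte markers rose and 4 fell in Cebpa-KO, and 1 rose and 3 fell in DKO. The sum of 6 cholangiocyte markers was 795 to 963 normalized counts in the livers labelled Trib1-KO, 2577 to 7826 in Cebpa-KO and 2346 to 5367 in DKO, against 1085 to 1484 in WT, so that Cebpa-KO and DKO lay above every WT liver. By gene, Spp1 rose and Sox9 fell in Cebpa-KO and DKO, and Epcam fell in DKO. Of 10 hepatic stellate cell markers 4 rose in the livers labelled Trib1-KO against WT and 6 fell in DKO against the livers labelled Trib1-KO, and their sum was 8186 to 10225 normalized counts in the livers labelled Trib1-KO, 7049 to 8207 in Cebpa-KO and 6304 to 8411 in DKO, against 6957 to 9126 in WT. The sum of 12 markers of sinusoidal endothelial cells, the cells known as the source of BMP6, was 11812 to 12713 normalized counts in the livers labelled Trib1-KO, 11802 to 13938 in Cebpa-KO and 11107 to 13131 in DKO, against 11013 to 12976 in WT. By gene, 3 rose and 2 fell in the livers labelled Trib1-KO against WT, 2 rose in Cebpa-KO and none was called in DKO. When totals without the major urinary protein genes scaled the libraries, 6 rose and none fell in the livers labelled Trib1-KO. Over all genes 5180 rose and 987 fell there under that scaling. No marker was at 0 in all libraries, and the part of these markers in the results on Tfr2, Tmprss6, Id1, Hamp2 and the pathway lists, Hjv and Id3 included, was not tested.

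The genes most like Hamp over the 24 libraries, by the root mean square difference of log2 values after each gene's own mean was taken out, were Hnf4a (0.23), Cyb5r4 (0.23), Pigm (0.23), Sigirr (0.24), Samd1 (0.24) and Ipo4 (0.25). The median over the 12565 genes compared was 0.43, and Hamp's own SD was 0.29, so a gene that hardly varied would come near these values. For Bmp6 the nearest were Rgl2 (0.32), Slc22a17 (0.33) and Mars2 (0.33), and for Slc40a1 they were Usp36 (0.24), Trim27 (0.24) and Pcm1 (0.25).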

How the data were processed

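Poly(A) RNA of 24 mouse livers was sequenced with a stranded TruSeq kit, per the labels' protocols. Per the submitters' processing notes, Salmon, DESeq2 and GRCm38.p6 were used, with versions and settings of the tools not given in the sources used here. The deposited table holds a signal per gene, which was read from its values as the authors' estimated counts after division by library size factors. Between 60.7 and 66.2% of the low values lay within 0.02 of whole multiples of a step, so whole reads were not recovered and no count model was used. The steps give an estimated 18640400 to 34287100 reads per library. GENCODE M21 holds 99.3% of the versioned identifiers. Columns carry a group, a letter and a number but name no mouse or cohort, so no cohort term could be fitted, and cohort effects cannot be told apart from spread within groups.

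Log2 of the value plus 1 was fitted with limma 3.58.1 (R 4.3.3, intensity trend) for the 19810 genes whose mean reached 1, in a single model of 4 groups. Adjusted p values are Benjamini-Hochberg over all of them, and genes under 0.05 were called. The fit was tested on simulated data. Sequences were aligned with Biopython 1.88. The members and lists were chosen with earlier results of these data known. The members were always named, and up to 4 genes of each list with the smallest adjusted p in each comparison with WT; Hjv in the livers labelled Trib1-KO and the pathway genes described by level were chosen after their values were seen. Alternatives were other pseudocounts, filters and scalings, no trend, the groups of a comparison alone, the column number as a term, and each library left out.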

Additional observations from a re-analysis of the deposited data

Results flagged for a closer look

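The interaction passed limma's test, adjusted over all genes tested, for 3 of the 10 genes, beside 12.6% of all genes. In these 3 the difference of DKO from Cebpa-KO departed from the difference of the livers labelled Trib1-KO from WT. The interaction was -1.78 on the log2 scale for Hamp2 (adjusted p = 0.0098, between 0.0025 and 0.025 over 34 alternatives), 0.88 for Tfr2 (adjusted p = 2.2e-04, between 1.5e-05 and 0.0024) and 0.58 for Tmprss6 (adjusted p = 1.2e-04, between 5.2e-05 and 0.019). For Hamp2, 6 of 6 DKO libraries were below all Cebpa-KO libraries. For Tfr2 and Tmprss6, 6 of 6 libraries labelled Trib1-KO were below all WT libraries. These 3 genes were picked by their call on the same values, so the separation is not further support. The share of all genes so separated was not computed. No library was flagged by Dixon's test in any of the 40 groups of values tested, where chance flags about 1 in 20. The test looks at the single lowest or highest value. It cannot flag 2 high libraries that stand together, such as E1 and E2 for Tfrc in Cebpa-KO.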

How the results depend on the processing

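Over 1460 values of the 10 genes under alternatives, 1358 kept direction and call, 21 lost a call, 5 gained one, none that was called reversed, and 76 that were never called changed sign. In Cebpa-KO against WT the number of the 10 genes called was 1 with no filter on low values, with no intensity trend, with only the groups of the comparison, and without libraries E1 and E2, and 0 to 2 when each library was left out. In DKO against WT it was 2 with the column number as a term and with only the groups of the comparison, and 1 to 2 when each was left out. In DKO against Cebpa-KO it was 0 without E1 and E2, where Hamp2 was at -1.69 (adjusted p = 0.12), and 0 to 1 when each was left out, with Hamp2 between -1.84 and -1.64. Genes called over the whole table in DKO against Cebpa-KO numbered 40, and 25 with no filter, 23 with no trend, 61 with the column number, 19 with only the groups of the comparison, 18 without E1 and E2, and 18 to 63 when each library was left out. Over all alternatives, genes called over the whole table numbered 1375 to 2030 in Cebpa-KO against WT, beside 1946 in the fit described above. In DKO against WT they numbered 820 to 1305, beside 1206. Leaving out E1 and E2, in which Tfrc stood highest, was chosen after seeing the data. The causes were not tested.

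The column numbers do not pair the libraries: deviations of same-numbered libraries had correlations of -0.09 to 0.12, and 1, 0 and 1 of 6 pairs exceeded 0.1 for the numbers 1, 2 and 3. As a replicate block the number moved the calls as given above.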

Other observations

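Within the libraries labelled Trib1-KO, Tfrc was 400 to 419 normalized counts in the 3 columns named C and 263 to 274 in the 3 named D. The labels do not say what the letters mean. Across the 24 libraries, with group means taken out, Hamp2 and the summed erythroid markers had a Pearson's r of 0.59 (permutation p = 0.027) and a Spearman's rho of 0.37 (permutation p = 0.14). Without the 2 libraries farthest from the median r was 0.32, so the relation rests on those libraries. Within the groups r was 0.22 in the libraries labelled Trib1-KO, 0.18 in Cebpa-KO and -0.08 in DKO, against 0.89 in WT (6 libraries each), so it rests on WT. This relation was computed after the data were seen.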
